A study of Rattus norvegicus with 4 samples.

Results

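The Hox genes of cultured rat Schwann cells (SCs), the glia of peripheral nerves, were compared between cells made to express the Egr2 promoter antisense RNA (Egr2-AS) and control cells. Hox genes were taken as every row of the count table whose name is Hox, a cluster letter from a to d and a paralog number, which gave 27 of the 17949 genes. They were 6 genes of the HoxA cluster, 7 of HoxB, 7 of HoxC and 7 of HoxD. A further 12 Hox genes that RefSeq lists for the rat (Hoxa3, Hoxa5, Hoxa9, Hoxa10, Hoxa13, Hoxb1, Hoxb2, Hoxb6, Hoxc6, Hoxc13, Hoxd8 and Hoxd11) were not analysed here.

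RNA-seq was used on 4 samples of primary SCs from rat sciatic nerve, kept in medium with 10% FBS, 4 μM forskolin and 5 ng/ml heregulin-β1. The cells of both groups were infected with lentivirus for 48 h, carrying either the Egr2-AS (Lenti-AS, n = 2) or, as the control, green fluorescent protein (Lenti-GFP, n = 2). The vector of the Egr2-AS also encodes a red fluorescent protein, so the Egr2-AS and the change of reporter cannot be told apart. Samples held 74024323 to 96185890 counts, of which 6580 to 9788 fell on Hox genes. The labels call the samples biological replicates without naming separate animals or cultures, so the p-values measure the spread between these samples, which may be technical. All 9 SC markers in the table were tested and their summed level was 9550 to 11500 CPM (counts on a gene scaled to the library) in the 4 samples. Lenti-AS 2 stood apart by globin RNA, with 2290 CPM summed over 5 erythroid genes against 3.36 to 6.36 CPM in the other samples, and its part in the Hox values was not tested.

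Hox genes encode transcription factors with a homeodomain, the DNA-binding fold that names the family. In mammals they lie in 4 clusters on different chromosomes, and within a cluster their order on the chromosome follows their order of expression along the head-to-tail axis, with low paralog numbers towards the head. Polycomb complexes, which place H3K27me3, keep silent parts of the clusters shut, and Trithorax complexes, which place H3K4me3, keep active parts open. Egr2, also called Krox20, is known in the hindbrain as a direct activator of Hoxa2 and Hoxb2. Cells taken from the body often keep part of the Hox pattern of the place they came from.

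Of the 27 Hox genes, 1 differed between Lenti-AS and Lenti-GFP beyond the threshold, and this was Hoxd3, which fell. A gene entered edgeR's quasi-likelihood test if 2 or more samples reached 10 counts, and 20 Hox genes were among the 12446 that did. Calls needed a Benjamini-Hochberg adjusted p under 0.05 together with a 1.3-fold or larger fitted change. Thus 1 of 20 Hox genes was called lower, where 0.667% of all tested genes were, and 0 of 20 were called higher, where 1.31% of all tested genes were. At an unadjusted p under 0.05 there were 2 Hox genes, Hoxd3 and Hoxb8, against 21.8% of all tested genes. DESeq2, limma-voom and edgeR's likelihood ratio test also called 0 Hox genes higher and 1 lower. Of all 12446 tested genes they called 488, 151 and 374 higher and 139, 84 and 147 lower. DESeq2 left the adjusted p empty for 11 of the 20 Hox genes, among them Hoxb5, Hoxb8 and Hoxc10, so it could not call these. CPM values are counts scaled to the summed counts on tested genes with TMM factors. They are not divided by gene length, so levels are compared here between samples of 1 gene, and the gene with the most reads in a cluster is not thereby the one with the highest level.

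Hoxd3, a paralog group 3 factor of the HoxD cluster, had 1509 and 1441 counts in the Lenti-GFP samples and 147 and 60 counts in the Lenti-AS samples. Its CPM values were 16.2 and 15.2 in Lenti-GFP, and 1.68 and 0.798 in Lenti-AS. Both Lenti-AS samples lay far below both Lenti-GFP samples, with a gap of 13.5 CPM from the lower control to the higher Lenti-AS sample. Replicates were 0.962 CPM apart in Lenti-GFP and 0.879 CPM apart in Lenti-AS. As log2 ratios of sample 1 to sample 2 these were 0.09 in Lenti-GFP and 1.07 in Lenti-AS, so the Lenti-AS samples differed more for their level. The control level was 15.7 ± 0.680 CPM (SD, n = 2), against 1.24 ± 0.622 CPM (SD, n = 2) with the Egr2-AS. Hoxd3 was 12.5-fold lower in Lenti-AS (95% interval 7.35 to 21.4), a log2 fold change of -3.65 with a standard error of 0.31 (edgeR's quasi-likelihood test, adjusted p = 0.0172). No other tested gene had a larger fitted fall, and 3 genes in all fell by a fitted 8-fold or more. The call rested on both control samples, since the log2 fold change was -3.61 without Lenti-GFP 1 (edgeR, adjusted p = 0.148) and -3.70 without Lenti-GFP 2 (edgeR, adjusted p = 0.147). Those smaller fits called 1 gene lower and 0 higher among all genes.

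**Figure D1:**
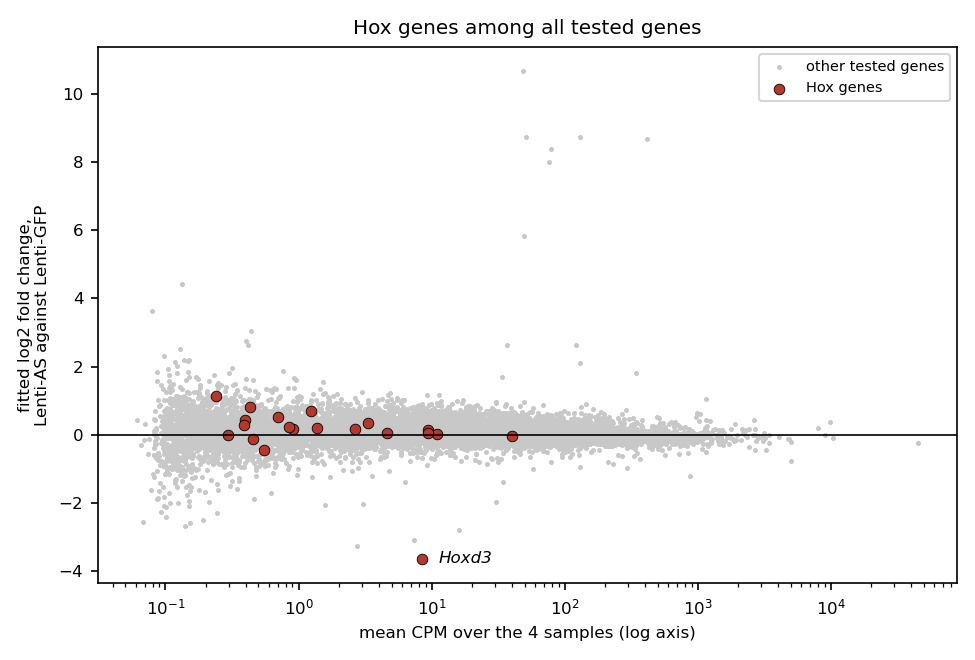
Fitted log2 fold change (vertical axis, Lenti-AS against Lenti-GFP) against mean CPM over the 4 samples (horizontal log axis) for the 12446 tested genes in grey, with the 20 tested Hox genes in red. Hoxd3 is the lowest point of the plot at -3.65, and the other 19 Hox genes lie between -0.43 and 1.14.

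The genes beside Hoxd3 are shown by the 250 bases before their RefSeq start, because the difference in counts falls between genes that lie next to each other. In the GRCr8 assembly the rat HoxD genes run from Hoxd13 through Hoxd9 and Hoxd8 to Hoxd4, Hoxd3 and Hoxd1, followed by Mtx2, which encodes a mitochondrial membrane protein. The windows are on the + strand at chr3:80021636-80021885 for Hoxd4, chr3:80045876-80046125 for Hoxd3 and chr3:80072791-80073040 for Hoxd1, printed 5′ to 3′ with each CpG in capitals.
Hoxd4: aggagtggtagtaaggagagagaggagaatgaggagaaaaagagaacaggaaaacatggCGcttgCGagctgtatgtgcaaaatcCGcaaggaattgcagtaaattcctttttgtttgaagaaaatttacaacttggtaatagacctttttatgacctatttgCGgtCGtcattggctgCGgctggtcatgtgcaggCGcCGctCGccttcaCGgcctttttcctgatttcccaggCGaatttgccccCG
Hoxd3: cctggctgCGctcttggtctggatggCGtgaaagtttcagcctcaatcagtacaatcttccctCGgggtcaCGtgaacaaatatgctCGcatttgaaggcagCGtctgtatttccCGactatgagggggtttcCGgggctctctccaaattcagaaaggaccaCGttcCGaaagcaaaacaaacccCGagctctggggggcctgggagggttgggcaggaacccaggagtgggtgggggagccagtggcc
Hoxd1: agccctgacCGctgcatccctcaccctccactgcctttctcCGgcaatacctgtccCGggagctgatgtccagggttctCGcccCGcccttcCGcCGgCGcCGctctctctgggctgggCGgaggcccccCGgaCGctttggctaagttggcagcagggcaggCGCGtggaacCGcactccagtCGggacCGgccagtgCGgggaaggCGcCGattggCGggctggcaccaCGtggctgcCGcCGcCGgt
The Hoxd4 window held 12 CpG, the Hoxd3 window 11 and the Hoxd1 window 25, where the median over 33469 rat promoter windows was 5 and that over 21 Hox windows was 20. On both strands the letters GCCATNTT, a core of the YY1 motif, were found in the Hoxd4 window alone of these 3, in 2 of 21 Hox windows and in 4.23% of all windows. Neither TGANTCA, a core of the AP-1 motif, nor GCGNGGGCG, a core of the EGR motif, was found in these 3 windows. Of the 21 Hox windows 0 held the AP-1 letters (6.34% of all windows) and 4 held the EGR letters (4.29% of all windows). The 4 were those of Hoxa4 and of Hoxd8, Hoxa9 and Hoxa13, which are not among the 27 genes. The EGR letters contain CpG, of which the Hox windows held more, and the shares were not compared at equal CpG. These matches describe letters only, and the windows are not of the build used for the counts.

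Hoxd4, the neighbour of Hoxd3 towards the higher paralog numbers, was at 11.0 and 10.5 CPM in the controls against 10.8 and 11.2 CPM in Lenti-AS. The groups overlapped, and the fitted fold change of 1.02 had a 95% interval from 0.871 to 1.20 (edgeR, adjusted p = 0.863). Relative to Hoxd4, the Hoxd3 counts were 1.47 and 1.45 in the Lenti-GFP samples and 0.156 and 0.0712 in the Lenti-AS samples. The mean log2 of this ratio was 0.55 ± 0.0157 (SD, n = 2) in Lenti-GFP and -3.25 ± 0.799 (SD, n = 2) in Lenti-AS, and its exact permutation p of 0.333 is the smallest that 2 against 2 samples can give. The interval of Hoxd4 thus lay far from the value of Hoxd3 in the same libraries.

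Hoxd1, on the other side of Hoxd3 and the HoxD gene nearest the head-end of the cluster, was too low for the test. It had 11 and 5 counts in the Lenti-GFP samples and 0 and 1 count in the Lenti-AS samples, where 0 counts allow up to 0.0342 CPM. Summed per group these were 16 counts against 1, a ratio of 0.0722 after scaling by depth (exact binomial 95% interval 0.00172 to 0.465, covering counting error only). Fitted without a filter on low counts, among 16326 genes, its log2 fold change was -3.51 with a standard error of 1.40 (edgeR, adjusted p = 0.256). Hoxd1 thus had fewer counts in both Lenti-AS samples, but its difference did not pass the test. Another gene under the filter, Hoxa11, had more counts in both Lenti-AS samples.

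Hoxd9, a posterior HoxD gene, was at 2.75 and 3.14 CPM in the controls against 3.43 and 4.03 CPM in Lenti-AS. The groups did not overlap, with Lenti-AS the higher, yet the log2 fold change of 0.34 (standard error 0.18) did not pass the test (edgeR, adjusted p = 0.315). The posterior genes Hoxd10, Hoxd12 and Hoxd13 were at or near 0, with at most 6 counts in any sample. Over the whole cluster the HoxD counts summed to 30.1 and 29.0 CPM in Lenti-GFP and to 16.0 and 16.1 CPM in Lenti-AS. Without Hoxd3 the sums were 13.9 and 13.8 CPM against 14.3 and 15.3 CPM, so that the other 6 genes together were not lower in Lenti-AS.

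**Figure D2:**
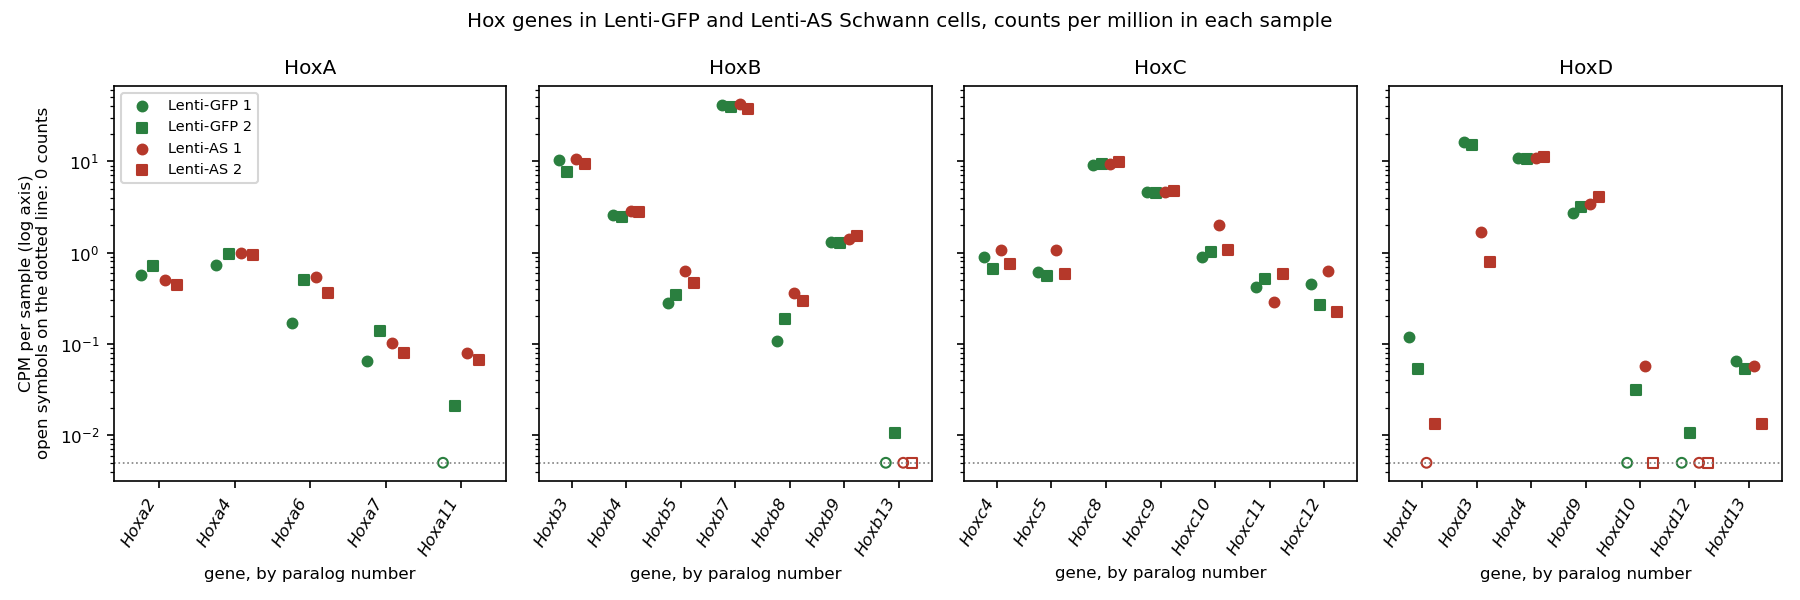
CPM in each sample (vertical log axis) for the Hox genes described, in 4 panels by cluster and ordered by paralog number, with green circles and squares for Lenti-GFP 1 and 2 and red ones for Lenti-AS 1 and 2. Open symbols on the dotted line mark 0 counts, and among the tested genes Hoxd3 has the widest gap, with red symbols at 1.68 and 0.798 under green ones at 16.2 and 15.2.

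In the HoxB cluster no gene was called. Of its 6 tested genes 5 had a fitted value above 0, where 6385 of all 12446 tested genes did. The median log2 fold change of the 6 was 0.18. Hoxb7, which took the most reads of any Hox gene, was at 41.3 and 39.8 CPM in the controls against 42.5 and 37.0 CPM in Lenti-AS. The groups overlapped, and its 95% interval of the fold change ran from 0.846 to 1.14 (edgeR, adjusted p = 0.879). Hoxb3, the HoxB paralog of Hoxd3, was at 10.4 and 7.55 CPM in the controls against 10.5 and 9.27 CPM in Lenti-AS. Its interval, 0.818 to 1.48, did not reach the fall seen for Hoxd3 (edgeR, adjusted p = 0.677). Hoxb4 and Hoxb9 had fitted log2 fold changes of 0.16 and 0.20 and intervals within 2-fold.

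Hoxb8 and Hoxb5, which lie among the middle genes of the cluster, had the 2 highest fitted values of the 20 tested Hox genes. Hoxb8 had 10 and 18 counts in the Lenti-GFP samples and 32 and 22 counts in the Lenti-AS samples. Its level was 0.149 ± 0.0585 CPM (SD, n = 2) against 0.329 ± 0.0512 CPM (SD, n = 2), a log2 fold change of 1.14 with a standard error of 0.45 (edgeR, adjusted p = 0.218). Hoxb5 had 26 and 33 counts in Lenti-GFP and 55 and 35 in Lenti-AS, with a log2 fold change of 0.80 (standard error 0.35, edgeR, adjusted p = 0.249). For both genes the Lenti-AS samples were above the controls, as they were for 6 of 20 Hox genes (also Hoxb4, Hoxb9, Hoxc10 and Hoxd9) and for 27.7% of all tested genes, and neither passed the test. The antisense row Hoxb5os had a log2 fold change of 0.39 (edgeR, adjusted p = 0.457), and without a stated strand setting its reads and those of Hoxb5 cannot be told apart. Hoxb13 had 1 count in 1 sample.

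All 7 HoxC genes were tested and none was called. Hoxc8, a gene of thoracic segments, was at 9.05 and 9.40 CPM in the controls against 9.31 and 9.94 CPM in Lenti-AS, with an interval of the fold change from 0.874 to 1.24 (edgeR, adjusted p = 0.768). Hoxc9 was at 4.61 and 4.47 CPM in the controls against 4.56 and 4.75 CPM in Lenti-AS (fold change interval 0.813 to 1.29). These 2 genes showed the tightest replicates of the cluster. The others varied more between the Lenti-AS samples, as Hoxc10, a posterior gene active in lumbar segments, showed with 83 and 96 counts in Lenti-GFP but 177 and 80 in Lenti-AS. Its log2 fold change was 0.70 with a standard error of 0.35 (edgeR, adjusted p = 0.298). Without Lenti-AS 2 the value was 1.09 and Hoxc10 was called higher (edgeR, adjusted p = 0.00432), in a fit that called 10.2% of all tested genes higher. Without Lenti-AS 1 the value was 0.16 (edgeR, adjusted p = 0.788), so the size of its difference rested on that library. Hoxc4, Hoxc5, Hoxc11 and Hoxc12 had log2 fold changes of 0.24, 0.51, -0.12 and 0.28 with adjusted p from 0.443 to 0.899 (edgeR).

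**Figure D3:**
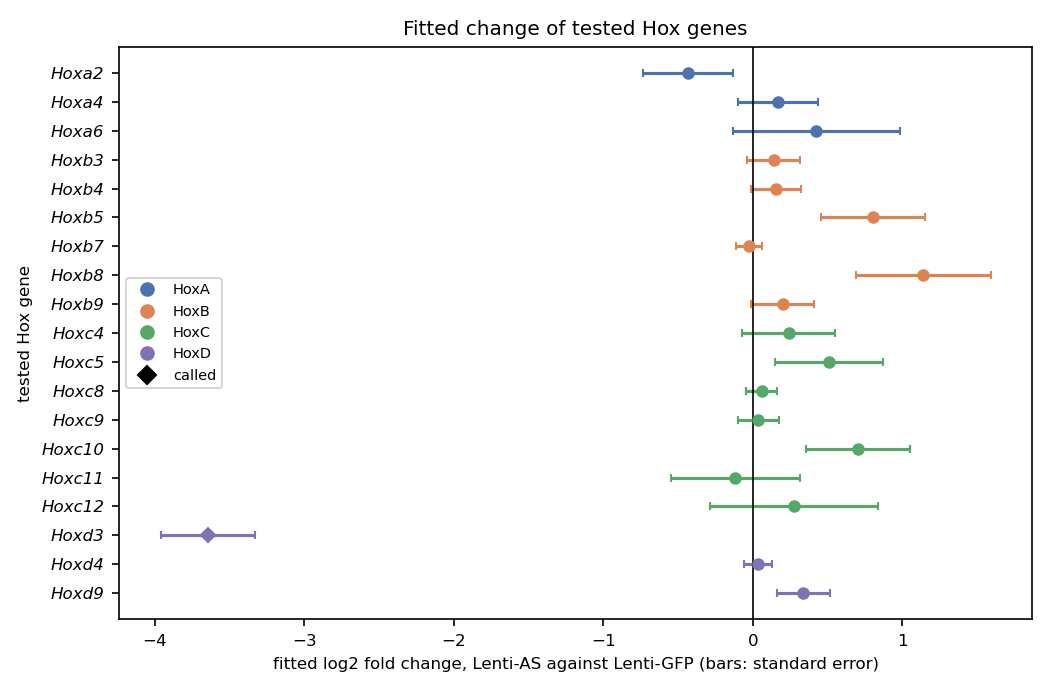
Fitted log2 fold change of the tested Hox genes described (Lenti-AS against Lenti-GFP, axis in log2 units), coloured by cluster, with bars of 1 standard error and a diamond for the called gene. Hoxd3 stands at -3.65, while the remaining genes lie between -0.43 and 1.14 and none of them was called.

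In the HoxA cluster 4 of 6 genes were tested and none was called. Hoxa2, the hindbrain target of Egr2, was at 0.568 and 0.707 CPM in the controls against 0.502 and 0.439 CPM in Lenti-AS. The Lenti-AS values were both under the controls, as for 27.2% of all tested genes, and the log2 fold change of -0.43 (standard error 0.30) did not pass the test (edgeR, adjusted p = 0.438). Among the 20 tested Hox genes 2 were placed this way, Hoxa2 and Hoxd3. Hoxa4, with the most reads of the cluster, was at 0.739 and 0.971 CPM in the controls against 0.993 and 0.931 CPM in Lenti-AS. The groups overlapped, and the interval of its fold change ran from 0.716 to 1.77. Hoxa6 had 16 and 48 counts in Lenti-GFP and 48 and 27 in Lenti-AS, so that its replicates differed more than its groups. Hoxa7 and Hoxa11 were under the filter, with 0 to 13 counts a sample. Hoxa11 had 0 and 2 counts in Lenti-GFP and 7 and 5 in Lenti-AS, the other direction from Hoxd1. Its depth-scaled ratio was 6.93 (exact binomial 95% interval 1.54 to 63.8, covering counting error only). A second row exists for Hoxa6, Hoxa7 and Hoxa11 in the table, over which reads may be split, and the values of these 3 genes are uncertain.

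Across the clusters the 20 tested genes had a median log2 fold change of 0.16, where that of all 12446 genes was 0.01. By position, the 4 tested genes of paralog groups 1 to 3 had a median of -0.22, the 10 of groups 4 to 8 had 0.21 and the 6 of groups 9 to 13 had 0.24. With 1 sample left out these medians ran from -0.28 to -0.17 for groups 1 to 3, from 0.09 (without Lenti-AS 1) to 0.34 (without Lenti-AS 2) for groups 4 to 8, and from 0.12 (without Lenti-GFP 2) to 0.23 for groups 9 to 13. Groups 1 to 3 held Hoxd3 beside genes that were not called, with Hoxa2 at -0.43 and Hoxb3 at 0.14. The positions were not tested against each other. Apart from Hoxd3, the lowest adjusted p was 0.218, for Hoxb8 (edgeR). For 10 genes, among them Hoxa4, Hoxb3, Hoxb4, Hoxb7, Hoxb9, Hoxc8, Hoxc9, Hoxd4 and Hoxd9, the 95% interval lay within 2-fold in either direction. For the other 9 genes that were not called the interval reached 2-fold in at least 1 direction, so these samples leave room for a change of that size. Summed by cluster, HoxA had 2.24 ± 0.517 and 2.34 ± 0.250 CPM, HoxB 53.8 ± 3.04 and 54.8 ± 4.88 CPM, and HoxC 16.9 ± 0.0316 and 18.4 ± 0.740 CPM in Lenti-GFP and Lenti-AS (SD, n = 2 each). The exact permutation p was 1.00 for HoxA and HoxB and 0.333, the smallest possible, for HoxC and HoxD.

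Replicate spread was wider between the Lenti-AS samples than between the controls. Between Lenti-AS 1 and 2, 6 of 20 Hox genes (Hoxa6, Hoxc5, Hoxc10, Hoxc11, Hoxc12 and Hoxd3) differed by at least 1.5-fold in CPM, where 11.6% of all tested genes did. Between the Lenti-GFP samples 3 of 20 did (Hoxa6, Hoxb8 and Hoxc12), where 7.18% of all tested genes did. The HoxC cluster held 4 of the 6. Genes of SCs and fibroblasts also differed between these samples: Sox10, a factor of the SC lineage, had 14269 counts in Lenti-AS 1 and 4604 in Lenti-AS 2, and Col1a1, a collagen gene, had 186781 and 21807. Their part in the Hox values was not tested.

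**Figure D4:**
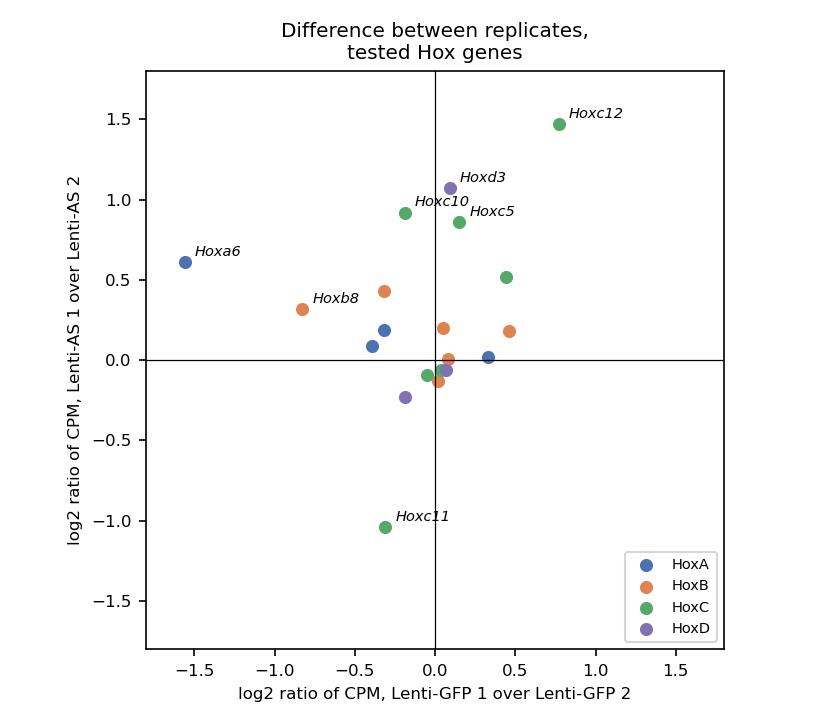
Log2 CPM ratio of Lenti-GFP 1 to 2 (horizontal axis) against that of Lenti-AS 1 to 2 (vertical axis) for the 20 tested Hox genes, coloured by cluster. Points spread further along the vertical axis, from -1.04 for Hoxc11 to 1.47 for Hoxc12, and Hoxd3 lies at 1.07 between the Lenti-AS samples.

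The genes that act with or on the Hox clusters were followed as lists, chosen with earlier results of these data known. Their calls stand beside the 0.667% of all tested genes called lower and the 1.31% called higher. At these shares most lists this small would hold no call. Of 9 Hox cofactors, the Pbx, Meis and Pknox genes whose proteins bind DNA together with Hox proteins, all 9 were tested and none was called, with log2 fold changes from -0.23 for Pbx2 to 0.57 for Pbx4. Polycomb genes had 19 tested members, none called, with a median of 0.06, and Ezh2, the H3K27 methyltransferase, was at 102 and 99.3 CPM in the controls against 98.5 and 111 CPM in Lenti-AS. None of 6 Trithorax genes, among them Wdr5 with a log2 fold change of -0.11 (edgeR, adjusted p = 0.657), and none of 7 genes of cluster boundaries and cohesin was called. Of 13 tested genes that neighbour the clusters none was called, and Mtx2, which follows Hoxd1, had a log2 fold change of -0.13 (edgeR, adjusted p = 0.344). In the 14 tested upstream inputs, 1 was called: Crabp1, a retinoic acid binding protein, rose from 9.77 ± 0.436 to 17.3 ± 1.99 CPM (SD, n = 2 each; log2 fold change 0.82, edgeR, adjusted p = 0.0328). Egr2 itself was at 49.2 and 42.1 CPM in the controls against 61.2 and 54.0 CPM in Lenti-AS, a log2 fold change of 0.33 (edgeR, adjusted p = 0.152), and whether reads of the Egr2-AS fell on its row was not tested. Yy1, which encodes a zinc finger factor, had a log2 fold change of -0.02 (edgeR, adjusted p = 0.926).

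A list of 10 genes of limb position, chosen with earlier results of these data known, held 7 tested members. By that choice its share of calls is no test of the list. Of the 7, 1 was called lower, where 0.667% of all tested genes were. It was Pitx1, a homeobox gene of hindlimb identity, with 463 and 468 counts in the Lenti-GFP samples and 48 and 35 in the Lenti-AS samples (log2 fold change -3.28 with a standard error of 0.20, edgeR, adjusted p = 0.00796). Like Hoxd3, both Lenti-AS samples were far below both controls, while the median of the list was 0.40. Hotairm1, a non-coding RNA of the HoxA cluster, had a log2 fold change of -0.32 (edgeR, adjusted p = 0.513), and the microRNA row inside the HoxD cluster, Mir10b, had 0 to 3 counts a sample. Among the cell types that could be present beside SCs, no marker was called. Summed marker levels were 2820 to 4680 CPM for fibroblasts (with Thy1, Dcn and Lum at no more than 3 counts a sample) and 15.4 to 20.9 CPM for endothelial cells. They were 235 to 292 CPM for pericytes and smooth muscle and 3.52 to 4.52 CPM for macrophages and leukocytes. Few genes made up the larger sums. In Lenti-GFP 1, Tek gave 19.8 of 20.9 CPM for endothelial cells, whose other 5 markers were under 1 CPM in every sample. There Pdgfrb gave 262 of 274 CPM for pericytes and smooth muscle, and Col3a1 and Col1a1 gave 3260 and 841 of 4270 CPM for fibroblasts. The sums alone do not show these cells to be present.

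**Figure D5:**
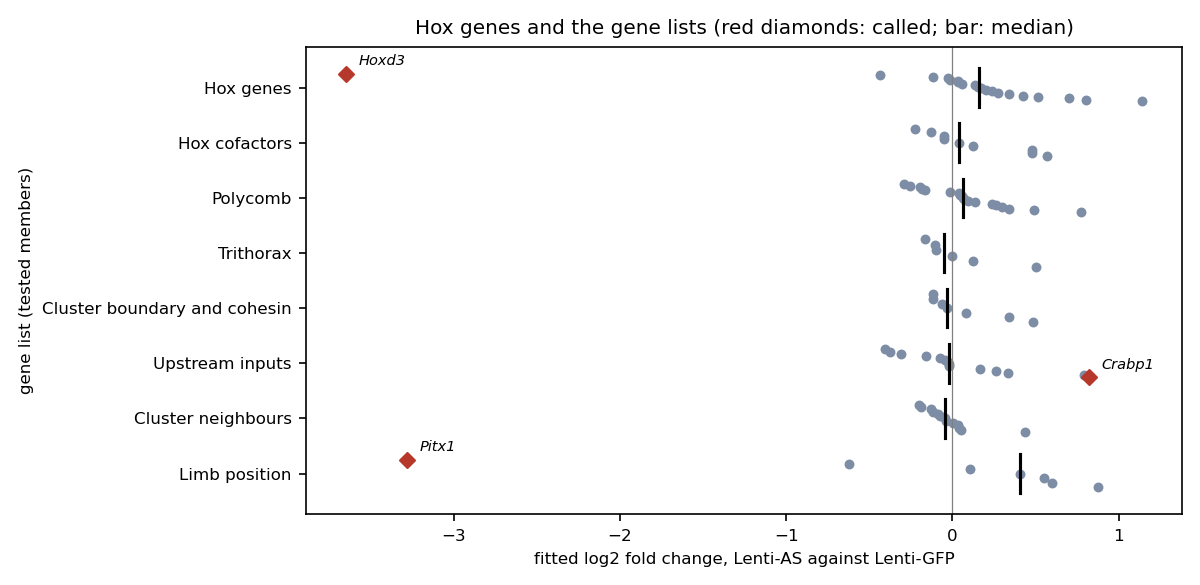
Fitted log2 fold change (axis in log2 units, Lenti-AS against Lenti-GFP) of every tested gene in the Hox set and in the lists of cofactors, regulators, inputs, neighbours and limb genes, with a bar at each median and red diamonds for called genes. The 3 called genes are Hoxd3 at -3.65, Pitx1 at -3.28 and Crabp1 at 0.82, and the medians lie between -0.05 and 0.40.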

How the data were processed

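Gene counts of 4 RNA-seq samples were analysed as deposited by the authors. Total RNA was read as 50 bp paired ends. The paper names hisat2 as the aligner, whereas the submitters' processing notes name GSNAP, and both name featureCounts and rn6, with RefSeq exons in the paper. How multi-mapping reads were counted and the strand setting are not given in the sources used here, so overlapping and antisense genes are uncertain. In all 1 row that repeated the header was dropped, 617 rows are second copies of a gene name, and 1623 genes had no counts. The table held 0 columns of other samples.

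edgeR 4.0.16 (R 4.3.3) was run on genes that reached 10 counts in 2 or more samples, by the quasi-likelihood test with TMM factors and Benjamini-Hochberg adjustment over 12446 genes. The values of 1 Hox gene, kept in the counts and medians, are not reported here. Members and gene lists were chosen with earlier results of these data known. By rule, values are given for Hox genes that were called or had an unadjusted p under 0.05, for the gene with the highest mean CPM in each cluster, and for the paralogs and neighbours of a called gene; from the lists, for called members, up to 4 by fold change, and Egr2, Ezh2, Wdr5 and Yy1, with Hoxa2 as a known target of Egr2. Hoxa6, Hoxa11, Hoxb5, Hoxc9, Hoxc10, Hoxd9, Mtx2, Sox10 and Col1a1 were added after their values were seen. Alternatives were DESeq2 1.42.0, limma 3.58.1 (voom), edgeR's likelihood ratio and newer quasi-likelihood fits, other size factors, filters and fold cut-offs, a replicate block, and leaving out each sample. Replicate numbers were not taken as pairs (correlation of same-numbered deviations -0.002). Replicates were distinct libraries (chi-square per gene 30.8 and 99.1). The fit was tested on simulated data. One count was worth 0.0106 to 0.0133 CPM and 3 counts 0.0317 to 0.0399 CPM, and the biological coefficient of variation was 12.1%. Sequences came from RefSeq promoter windows of GRCr8, which hold 13 of the 27 genes, while the counts used rn6.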

Additional observations from a re-analysis of the deposited data

How the results depend on the processing

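Hoxd3 was the 1 Hox gene called lower under every alternative that kept all 4 samples, with log2 fold changes of -3.72 to -3.62 and adjusted p from 3.26e-34 (DESeq2) to 0.0229. Leaving out 1 sample at a time gave -4.29 to -3.22 and 0 to 1 Hox genes called lower, with 0 without Lenti-GFP 1 (-3.61) or Lenti-GFP 2 (-3.70). With the replicate number as a block, which the samples share only as a number, Hoxd3 was at -3.71 (adjusted p = 0.0179), 3 genes were called higher and 14 lower in all, and no Hox call changed. Hox genes called higher numbered 0 to 1 with 1 sample left out, the 1 being Hoxc10 without Lenti-AS 2, and 0 otherwise. The Hox counts at an unadjusted p under 0.05 were 1 of 20 by DESeq2, 3 of 20 by the likelihood ratio test and 2 of 20 by limma-voom. Of all 12446 tested genes, 2645, 1854 and 2726 were under it by these tests. Over all genes DESeq2 called 488 higher and 139 lower and the likelihood ratio test 374 and 147, against 163 and 83. For 11 tested Hox genes DESeq2 left the adjusted p empty, so it could not call them. The Hox median of 0.16 ranged from 0.0687 to 0.1877 with 1 sample left out and was 0.10 with a filter of 1 CPM, which left 10 Hox genes. That filter left Hoxd3 and Hoxb3 alone in paralog groups 1 to 3, whose median moved to -1.75. It moved the median of groups 4 to 8 to 0.05. Scaling by library totals turned Hoxb7 to 0.0035. With 1 sample left out the sign turned for Hoxa4 (-0.0094 to 0.38), Hoxa6 (-0.15 to 1.40), Hoxb3 (-0.0740 to 0.39), Hoxb7 (-0.13 to 0.0688), Hoxc4 (-0.0447 to 0.48), Hoxc11 (-0.71 to 0.32) and Hoxc12 (-0.65 to 0.81), none of which was called. The causes were not tested. With 2 samples a group and 0 to 13 counts, Hoxd1 and 6 other Hox genes could be fitted without the low-count filter only.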
